A study of Mus musculus with 2 samples.

Results

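The probe sets for Wnt ligands, their receptors, their secreted inhibitors and the nearest intracellular partners were read on 2 microarrays of mammary epithelial cells, 1 from Cuzd1-null and 1 from Cuzd1-heterozygous mice. Members were all probe sets whose single gene symbol begins with Wnt, Fzd, Sfrp or Dkk and a digit, or is Frzb, Wif1, Lrp5, Lrp6, Axin1, Axin2, Lgr4 to Lgr6, Ror1, Ror2, Rspo1, Rspo3, Znrf3, Rnf43, Tcf7, Tcf7l1, Tcf7l2 or Lef1. The rule used no measured value. It found 56 of the 18193 gene symbols on the array, read by 110 of the 45037 probe sets that are not controls. Tcf7 had no such probe set and was not analysed here. Fzd10os, which the rule takes in by its spelling, is annotated as a transcript opposite Fzd10 and not as a receptor, and is given apart.

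The null mice lack Cuzd1, a gene for a protein that carries CUB domains and a zona pellucida-like one, after targeting by homologous recombination. The heterozygous littermates used for comparison carry 1 targeted allele themselves. Both are on a mainly C57BL/6 background, and no age is given in the labels. Cells were isolated by collagenase and hyaluronidase digestion of inguinal glands on day 18 of pregnancy, with no sort recorded, and the RNA of 5 mice per genotype was pooled on 1 array. Each difference is therefore one between 2 pools, with no replicate error and no test.

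Wnt proteins are lipid-modified secreted signals. They bind Frizzled receptors together with the co-receptors Lrp5 or Lrp6, which halts the Axin-based complex that destroys beta-catenin and lets beta-catenin act with TCF and LEF factors on DNA. Other Wnt proteins act through Ror receptors without beta-catenin. In the mouse mammary gland, Wnt4 is made under progesterone and promotes side branching, and R-spondins, which keep Frizzled receptors on the cell surface by way of Lgr receptors, support basal stem cells.

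Values are MAS5 signals in intensity units. As the dimmer part of such an array is mainly background, signals under the array's median were set to that median, called the floor here, which was 32.5 units on the null array and 34.2 units on the heterozygous array. A probe set was called measured if it was above the floor on at least 1 array, and a log2 ratio is null over heterozygous after flooring. The smaller the signal, the wider the ratios scatter, except close to the floor, where flooring itself narrows them. The robust SD of the ratios of measured probe sets of similar signal is therefore given beside the main values. This SD is a spread between genes and holds real differences as well as noise. Close to the floor, a small SD or a small 2-fold share is no sign of precision. Signals of different probe sets do not rank transcripts, because each probe set binds with its own strength.

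Both arrays carried epithelial signal and also signal of other cells. All 14 luminal epithelial and all 11 myoepithelial markers were above both floors, and so were all 14 fibroblast and all 12 endothelial markers found. The 9 spike-in probe sets for hybridization controls had a median log2 ratio of -0.23. Rescaling the null array to them moved the median of all measured genes to 0.26, against 0.03 as deposited, so directions hold relative to the deposited scaling. Cuzd1 itself read 33.98 units in null cells and 32.4 units in heterozygous cells, close to the floor on both. Whether its probes fall inside the deleted segment is not stated in the labels, so it does not check them.

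Wnt pathway probe sets were measured about as often as probe sets in general. Of the 110, 59 were measured, 50 of them on both arrays, 5 in null cells and 4 in heterozygous cells alone, and 51 (46.4%) were below both floors, beside 46.1% of all probe sets. The probe sets seen on 1 array passed the filter through the pool in which they were brighter. By gene, with the brightest probe set standing for each, 36 of 56 (64.3%) were measured, beside 65.4% of all genes. Below both floors were 11 ligands (Wnt1, Wnt2, Wnt2b, Wnt3, Wnt3a, Wnt8a, Wnt8b, Wnt9a, Wnt9b, Wnt10b and Wnt16), the receptors Fzd9, Lrp5 and Ror2, the inhibitors Dkk1, Dkk2, Dkk4 and Frzb, and Rspo3 and Lef1. A probe set below the floor does not show that its gene is silent.

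5 members crossed the size rule of a 2-fold difference. At least 2-fold higher in null cells were 4 of the 59 measured probe sets, 1 each of Tcf7l1, Fzd2, Lgr6 and Dkk3, or 6.78%, beside 0.965% of all 24260 measured probe sets. At least 2-fold lower was 1, Wnt10a, or 1.69%, beside 1.19% of all. By gene the counts were 3 higher and 1 lower of 36, beside 1.12% and 1.03% of all 11893 measured genes. The median log2 ratio of the 59 was 0.11 (quartiles -0.16 and 0.42), beside 0.00 for all measured probe sets. After rescaling to the hybridization controls 5 were higher and 0 lower, beside 2.63% and 0.523% of all probe sets on that scale, with medians of 0.34 for the members and 0.23 for all. Probe sets of 1 gene share their target and are not replicates.

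**Figure D1:**
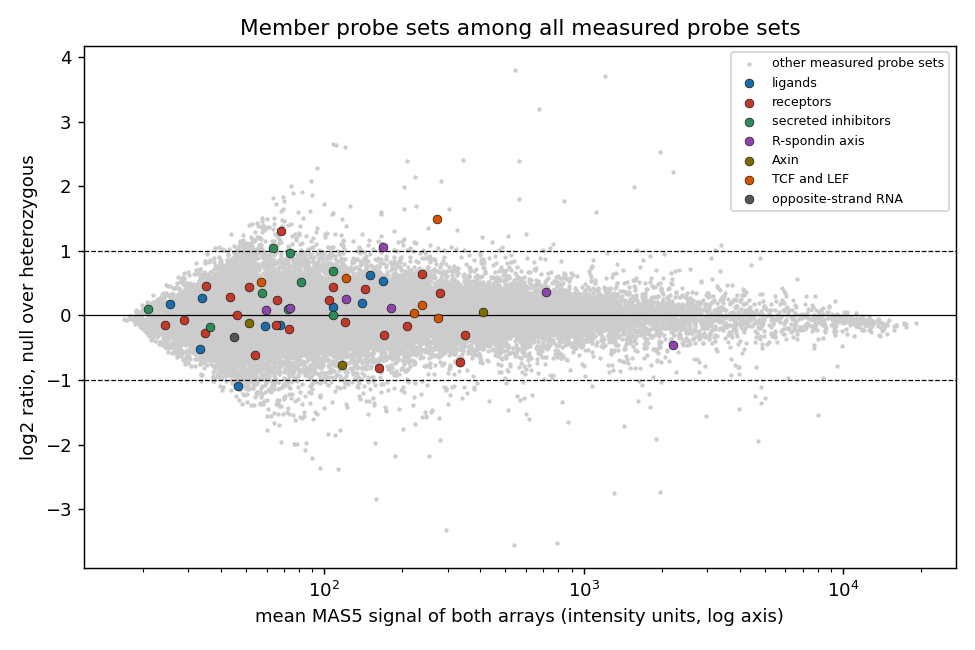
Log2 ratio of null over heterozygous (vertical) against the mean signal of both arrays in intensity units (horizontal, log axis) for all 24260 measured probe sets in grey and the 59 measured members coloured by role. Dashed lines mark 2-fold. The grey cloud is widest at low signal, and Lgr4 stands at the bright end with a ratio of -0.46.

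The factors that carry the signal to DNA held the member with the highest ratio. Tcf7l1, a TCF factor that mostly represses its targets when beta-catenin is absent, read 402 units in null cells and 142 units in heterozygous cells at its brighter probe set, 2.82-fold higher (log2 ratio 1.50, robust SD at that signal 0.29). Of measured probe sets of similar signal, 1.32% were 2-fold apart in either direction. The second probe set of Tcf7l1 read 252 units in null cells and 225 units in heterozygous cells, a ratio of 0.16. The 2 probe sets thus gave the same sign and differed by 1.33 log2 units, so the size of the difference in Tcf7l1 is uncertain.

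Tcf7l2, the TCF factor with several splice forms, also gave divided readings. Its brightest probe set read 272 units in null cells and 279 units in heterozygous cells (-0.04), and the next had a ratio of 0.04. The 2 dimmer ones read 145 units in null cells and 97.2 units in heterozygous cells (0.58), and 67.6 units in null cells and 47.0 units in heterozygous cells (0.53). Lef1 was below the floor at both of its probe sets. Of 6 measured probe sets for these factors, 5 had ratios above 0, beside 50.4% of all measured probe sets. They come from 2 genes, and by brightest probe set 1 gene was above 0 and 1 below.

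Promoter sequences are shown for 3 of the 4 genes with the largest ratios among those above both floors, and for Wnt5b, a ligand of the list whose window holds a TCF/LEF core. RefSeq (GRCm38.p6) listed promoters, 250 bases before to 50 after the start, for 37 of the 56 symbols. Fzd2 had none listed. The TCF/LEF core CTTTGAT was looked for on both strands, and so was the GC box GGGCGG, the core letters bound by Sp1-type factors. The first 3 sequences have the GC box in capitals on either strand (GGGCGG, or CCGCCC as its reverse), and the last has the TCF/LEF core in capitals. Their positions are chr6:72788996-72789295 on the minus strand for Tcf7l1, chr1:135105227-135105526 on the minus strand for Lgr6, chr10:121033754-121034053 on the plus strand for Wif1 and chr6:119449337-119449636 on the minus strand for 1 of the Wnt5b starts. Each is written 5′ to 3′ along its gene.
Tcf7l1: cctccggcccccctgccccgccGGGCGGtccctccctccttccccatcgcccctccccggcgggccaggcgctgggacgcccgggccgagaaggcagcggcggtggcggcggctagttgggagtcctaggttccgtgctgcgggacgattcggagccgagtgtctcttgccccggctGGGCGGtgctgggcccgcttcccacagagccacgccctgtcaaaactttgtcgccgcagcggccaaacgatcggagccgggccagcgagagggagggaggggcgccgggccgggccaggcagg
Lgr6: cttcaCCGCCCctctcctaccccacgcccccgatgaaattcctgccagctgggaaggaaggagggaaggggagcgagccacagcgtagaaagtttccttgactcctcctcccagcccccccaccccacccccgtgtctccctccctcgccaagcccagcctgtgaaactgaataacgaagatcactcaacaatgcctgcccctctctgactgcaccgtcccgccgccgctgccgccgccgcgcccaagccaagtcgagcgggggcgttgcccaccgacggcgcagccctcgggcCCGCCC
Wif1: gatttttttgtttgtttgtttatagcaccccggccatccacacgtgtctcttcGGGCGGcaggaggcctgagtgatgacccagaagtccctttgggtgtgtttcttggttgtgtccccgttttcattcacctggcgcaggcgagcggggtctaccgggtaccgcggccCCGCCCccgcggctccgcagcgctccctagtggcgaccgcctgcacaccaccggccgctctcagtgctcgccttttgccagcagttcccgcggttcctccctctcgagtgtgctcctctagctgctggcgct
Wnt5b: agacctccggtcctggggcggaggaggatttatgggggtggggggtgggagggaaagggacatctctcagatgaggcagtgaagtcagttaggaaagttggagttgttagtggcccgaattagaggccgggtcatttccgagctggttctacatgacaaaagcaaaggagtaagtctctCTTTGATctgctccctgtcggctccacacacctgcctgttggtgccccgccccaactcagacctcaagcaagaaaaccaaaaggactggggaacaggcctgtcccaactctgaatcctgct

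The letters of the TCF/LEF core were in 2 of the 45 listed member promoters, 1 of Wnt11 and 1 of Wnt5b, or 4.44%, beside 3.73% of all 32851 listed promoters. In Wnt5b the match starts at -71 from the start site, on the gene's strand. No match was found in the windows of Tcf7l1, Lgr6 and Wif1. The GC box was in 71.1% of member promoters, beside 35.7% of all, and the median GC content was 66.7% against 52.7%. Each of the Tcf7l1, Lgr6 and Wif1 windows held 2 GC boxes, in sequence of 75.3%, 67.7% and 63.0% GC. A match of letters is a description and shows no binding.

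Ligands were mostly near or below the floor. Wnt4 read 200.01 units in null cells and 138 units in heterozygous cells at its brighter probe set (log2 ratio 0.53, robust SD 0.32), and 114 units in null cells and 103.6 units in heterozygous cells at the other (0.13). Wnt5b, often linked to signalling without beta-catenin, read 183 units in null cells and 118 units in heterozygous cells (0.63) at a probe set whose suffix marks it as able to bind other transcripts. At its other probe set it read 149 units in null cells and 131 units in heterozygous cells (0.19). For both genes the probe sets had the same sign, above 0, with the brighter one showing the larger ratio.

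The ligand with the lowest ratio was Wnt10a, which signals through beta-catenin. It read 23.8 units in null cells, below the floor, and 69.4 units in heterozygous cells, at least 2.14-fold lower in null cells (log2 ratio -1.09). The robust SD among probe sets of similar signal was 0.56, and 1.81% of them were 2-fold apart. Flooring narrows ratios at such dim signals, so that share is no sign of precision. Wnt7b, another ligand of the beta-catenin branch, was also below the floor in null cells, at 19.4 units against 46.9 units in heterozygous cells (at least 1.44-fold lower). In the other direction, the brightest Wnt5a probe set read 41.1 units in null cells and 26.3 units in heterozygous cells (at least 1.20-fold higher). Its other probe sets, all below both floors, read 21.5, 13.4 and 15.5 units in null cells and 33.8, 21.5 and 8.80 in heterozygous cells. Wnt7a read 38.5 units in null cells and 12.6 units in heterozygous cells (at least 1.13-fold higher), also above the floor in null cells alone. Wnt6 and Wnt11 were above both floors with ratios of -0.15 and -0.16.

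**Figure D2:**
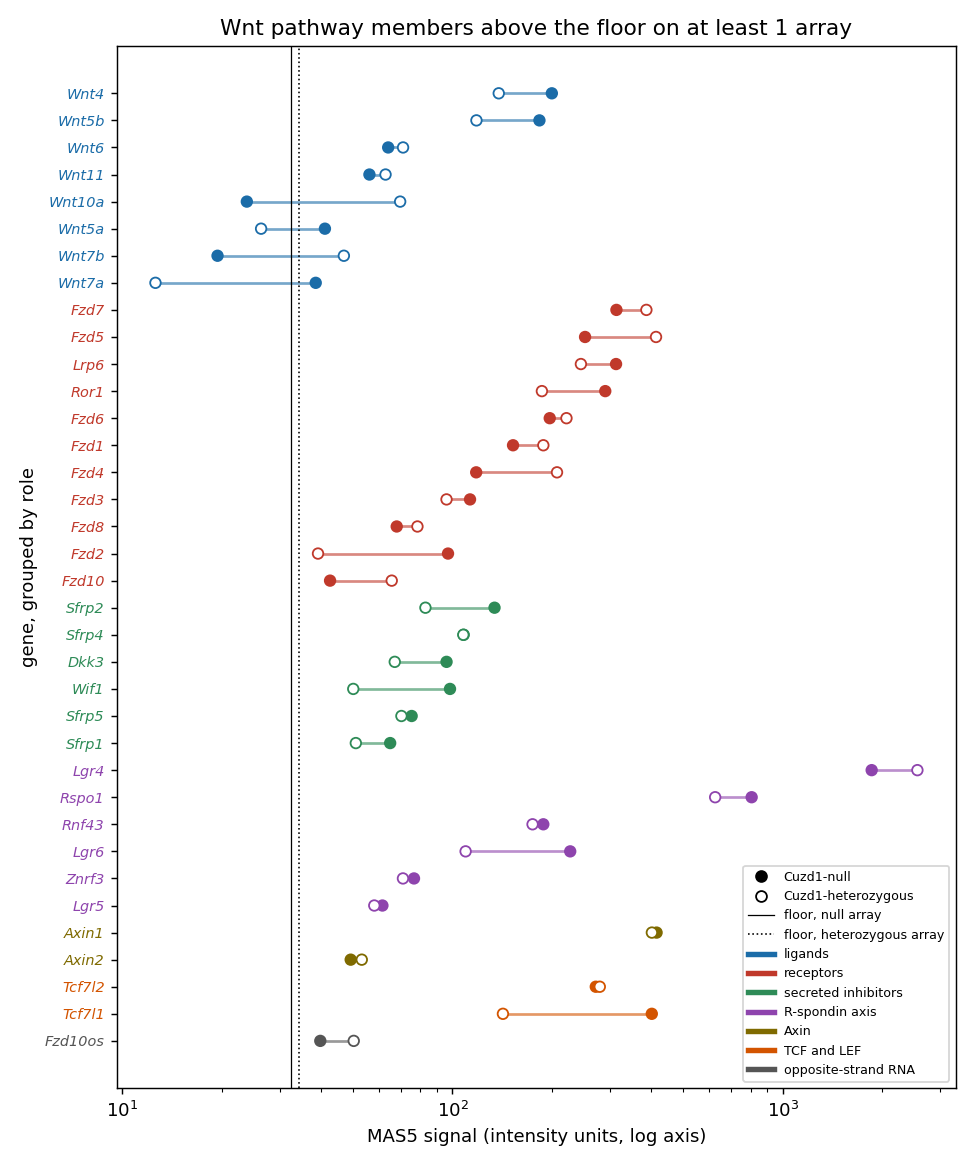
Signal of the brightest probe set of each of the 36 measured genes in intensity units (log axis), filled for Cuzd1-null and open for Cuzd1-heterozygous, grouped and coloured by role. The vertical lines are the 2 floors. The ligands crowd towards the floors, 5 of the 6 secreted inhibitors lie to the right of their heterozygous reading in null cells, and 7 of the 9 Frizzled genes lie to the left of it.

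The Frizzled receptors, membrane proteins that bind Wnt at the cell surface, were lower in null cells for 7 of 9 measured genes by their brightest probe set, with a median log2 ratio of -0.30. Of all measured genes 46.0% were below 0, with a median of 0.03. A measured Frizzled probe set, of Fzd3, was above the floor in null cells alone and has a ratio below 0 merely because the floors differ. Of the 18 others, 11 were below 0, with a median of -0.15, beside 49.6% of all measured probe sets below 0. Among these 11 are 2, of Fzd4 and Fzd7, that passed the filter through heterozygous cells alone. The signs of those 2 add no support. Relative to the hybridization controls 5 of 9 were below 0, with a median of -0.07. None was 2-fold lower. Fzd4 read 118 units in null cells and 207 units in heterozygous cells (-0.81, robust SD 0.32), but its next probe set read 116 units in null cells and 125 units in heterozygous cells (-0.10). Fzd5 read 252 units in null cells and 414 units in heterozygous cells (-0.71, robust SD 0.27). Its dim second probe set went the other way, at 59.3 units in null cells and 43.8 units in heterozygous cells (0.44), so the 2 probe sets of Fzd5 have opposite signs.

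The remaining Frizzled genes with ratios below 0 differed less, apart from the dim Fzd10. Fzd7, a receptor found in basal mammary cells, read 314 units in null cells and 387 units in heterozygous cells (-0.30, robust SD 0.23). Its second probe set, at 12.4 units in null cells and 36.2 units in heterozygous cells, passed the filter through heterozygous cells alone. Fzd1 had a ratio of -0.30, Fzd8 of -0.21 and Fzd6 of -0.17, the last with 0.45 at its second probe set. Fzd10 read 42.6 units in null cells and 65.5 units in heterozygous cells (-0.62, robust SD 0.53). The opposite-strand transcript Fzd10os, from the same locus, read 39.8 units in null cells and 50.2 units in heterozygous cells (-0.34).

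Fzd2 stood on the other side of 0. It read 97.0 units in null cells and 39.2 units in heterozygous cells at its brightest probe set, 2.48-fold higher (1.31, robust SD 0.44), in a range of signal where 5.36% of probe sets were 2-fold apart. Its 2 other probe sets read 71.1 and 47.8 units in null cells, against 60.4 and 39.3 units in heterozygous cells, with ratios of 0.24 and 0.28. All 3 thus lay above 0, and 1 of them passed 2-fold. Fzd3 had 0.24 at its brightest probe set, and -0.14 and 0.01 at the 2 others above both floors.

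The co-receptor Lrp6 and the Ror kinase Ror1 were higher in null cells at their probe sets above both floors, while Lrp5 and Ror2 were below both floors. Lrp6, the co-receptor needed for beta-catenin signalling, read 313 and 164 units in null cells, against 245 and 124 units in heterozygous cells, at its 2 probe sets. The ratios were 0.35 and 0.41 (robust SD 0.27 and 0.33), the closest pair among the 14 member genes with several probe sets above both floors. Ror1, a receptor tyrosine kinase-like protein that binds Wnt5a, read 290.3 units in null cells and 187 units in heterozygous cells (0.64, robust SD 0.29). Its dimmer measured probe set passed the filter through null cells alone, at 46.9 units against 23.3 units in heterozygous cells (at least 1.37-fold higher).

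Secreted inhibitors, which hold Wnt or its receptors outside the cell, were higher in null cells for 5 of 6 measured genes by the brightest probe set, while Sfrp4 read equal, and the median log2 ratio was 0.43 beside 0.03 over all measured genes. Of all measured genes, 54.0% had a ratio above 0. Over probe sets, 8 of 9 were above 0 and 1 was at least 2-fold higher, beside 50.4% and 0.965% of all measured probe sets. Among the 8 is a dim probe set of Sfrp5, at 36.6 units in null cells and 5.39 units in heterozygous cells. It passed the filter through null cells alone, so its sign adds no support. Wif1, which binds Wnt through its own WIF domain, read 98.3 units in null cells and 50.1 units in heterozygous cells, 1.96-fold higher (0.97, robust SD 0.44), just under 2-fold. Sfrp2, a soluble protein with a Frizzled-like domain, read 134 units in null cells and 82.8 units in heterozygous cells (0.70, robust SD 0.39).

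Dkk3, the divergent member of the Dickkopf family, read 96.0 units in null cells and 66.9 units in heterozygous cells at its brighter probe set (0.52, robust SD 0.43). The other read 85.7 units in null cells and 41.7 units in heterozygous cells, 2.05-fold higher (1.04, robust SD 0.48), where 5.94% of probe sets of similar signal were 2-fold apart. Both probe sets of Dkk3 had the same sign. Sfrp1 had ratios of 0.35 and, at a dimmer probe set, -0.19, and Sfrp5 had 0.10. Sfrp4 read 108 units in both pools (0.00). All these inhibitors gave low signals, so each ratio rests on a dim reading.

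The R-spondin axis held the brightest member and 1 of the 2-fold ones. Lgr4, a receptor for R-spondins, read 1862 units in null cells and 2561 units in heterozygous cells, 1.38-fold lower (-0.46, robust SD 0.19), and its ratio was -0.23 relative to the hybridization controls. Lgr6, a related receptor, was higher instead, at 227 units in null cells and 109.6 units in heterozygous cells at its brighter probe set, 2.07-fold (1.05, robust SD 0.32). Of probe sets of similar signal, 1.98% were 2-fold apart. The second probe set of Lgr6 read 132 units in null cells and 111 units in heterozygous cells (0.25). Lgr5, known as a stem cell marker in several epithelia, read 61.4 units in null cells and 58.0 units in heterozygous cells (0.08). The 3 Lgr receptors thus had ratios of unlike sign and size.

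Rspo1, the R-spondin ligand, read 806 units in null cells and 625 units in heterozygous cells (0.37, robust SD 0.24). Rnf43 and Znrf3, the ubiquitin ligases that remove Frizzled receptors from the surface and that R-spondins hold back, had ratios of 0.11 each. They read 188 and 76.5 units in null cells, against 175 and 70.8 units in heterozygous cells. Of the 6 measured genes of this axis, 5 had ratios above 0, with Lgr4 as the exception, beside 54.0% of all measured genes. The median was 0.11, beside 0.03 over all. The ratios of Lgr5, Rnf43 and Znrf3 lay under the robust SDs at their signal, 0.48, 0.32 and 0.44.

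Axin2, a scaffold of the destruction complex that beta-catenin itself induces and that is widely read as a reporter of the pathway, was dim and close to equal in the pools. It read 49.2 units in null cells and 53.1 units in heterozygous cells (-0.11, robust SD 0.53), or 0.12 relative to the hybridization controls. Axin1, the constitutive scaffold, read 415 units in null cells and 402 units in heterozygous cells (0.05). Its second probe set read 86.4 units in null cells and 147 units in heterozygous cells (-0.77), so Axin1 too had probe sets of opposite sign.

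**Figure D3:**
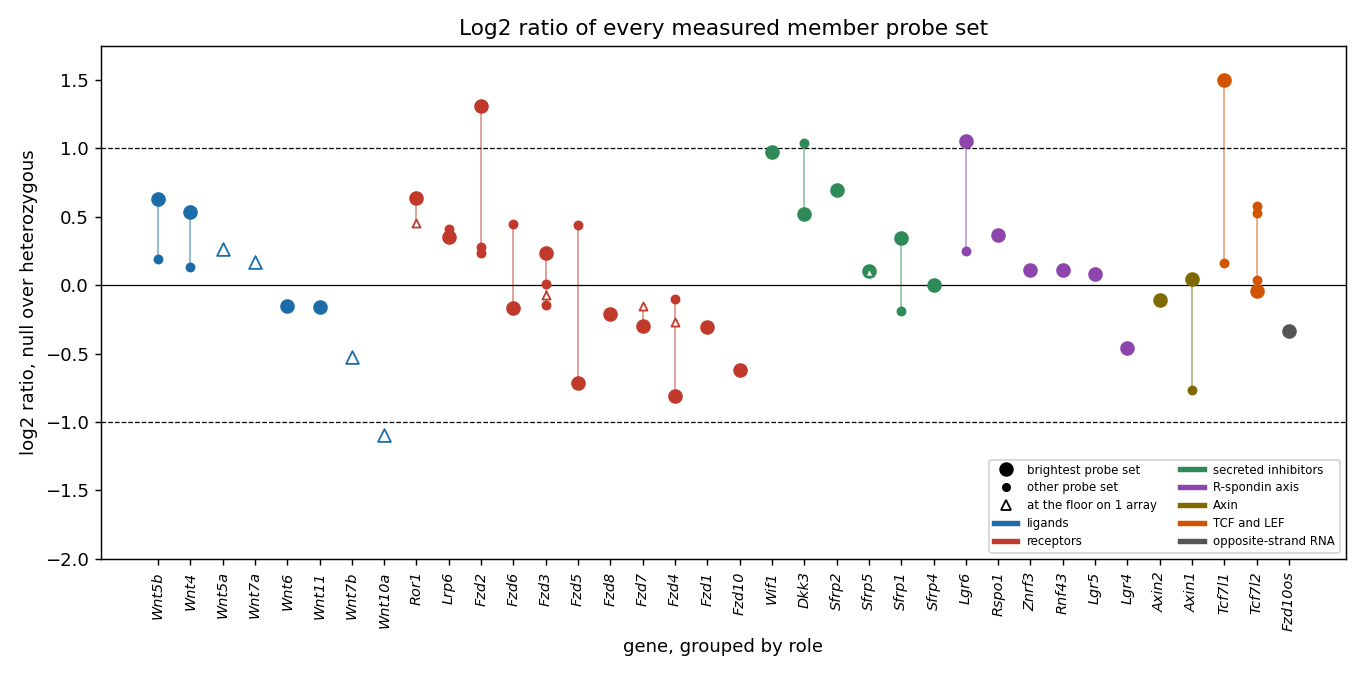
Log2 ratio of null over heterozygous for each of the 59 measured probe sets, by gene and role. Large symbols are the brightest probe set of a gene, small ones its others, open triangles are at the floor on 1 array, and dashed lines mark 2-fold. Vertical lines join the probe sets of a gene, and those of Tcf7l1, Fzd5 and Fzd2 are more than 1 log2 unit apart.

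Agreement between probe sets limits all of these values. Of the 14 member genes with at least 2 probe sets above both floors, 8 had all ratios on 1 side of 0 and 6 had ratios on both sides. The median gap between the lowest and the highest ratio of a gene was 0.62, and in 3 genes (Tcf7l1, Fzd5 and Fzd2) it was at least 1. Across the whole array, the difference between the 2 brightest probe sets of a gene gave a robust SD of 0.21 for a single probe set (4722 genes). That SD and the median gap are unlike measures, so they do not show whether members differ more than other genes.

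No other component of the pathway passed the 2-fold rule. Of 44 listed genes, 43 had a probe set and 35 were measured, with 21 ratios above 0, 14 below, and a median of 0.09. Over all measured genes, 54.0% of ratios were above 0, with a median of 0.03. Notum and Gpc3, a glypican, were at the floor in heterozygous cells, so their ratios of 0.71 and 0.63 are lower bounds and may hide a 2-fold difference. The 2 brightest were Ctnnb1, beta-catenin itself, at 5271 units in null cells and 5378 units in heterozygous cells (-0.03), and Csnk1a1, a kinase of the destruction complex, at 2686 units in null cells and 2688 units in heterozygous cells (-0.00). Both read alike in the pools.

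Genes known as beta-catenin targets in various tissues lay on both sides of 0. Of 20 listed, 12 were measured, 6 above and 6 below 0, with a median of 0.03. Tnfrsf19, a receptor of the TNF family, was the 1 at least 2-fold apart, at 128 units in null cells and 63.4 units in heterozygous cells (2.03-fold higher). Its 2 other probe sets were at the floor in heterozygous cells, so their ratios of 0.07 and 0.05 are lower bounds. 4 others were chosen after their values were seen. Myc, a growth regulator, read 982 units in null cells and 1784 units in heterozygous cells (-0.86), and Sox9, a progenitor factor, read 469 units in null cells and 866 units in heterozygous cells (-0.89). Ccnd1, cyclin D1, had a ratio of 0.24 and Notum, a secreted Wnt deacylase, was at the floor in heterozygous cells (at least 1.64-fold higher in null cells). The targets thus gave no common direction.

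Markers of stromal cells also differed between the pools. Over all measured genes, 54.0% of ratios were above 0, with a median of 0.03. Fibroblast markers were higher in null cells for 13 of 14 genes, with a median ratio of 0.71, and their signals summed to 15167 units in null cells and 11607 units in heterozygous cells. Endothelial markers were higher for 12 of 12, with a median of 0.39 and sums of 3634 units in null cells and 2633 units in heterozygous cells. Macrophage markers had 7 of 9 above 0, with a median of 0.29, and Cd163 was below both floors. Their signals summed to 6353 units in null cells and 4802 units in heterozygous cells. Itgam and Mrc1 passed the filter through null cells alone, so their signs add no support. The macrophage median is the floored ratio of Mrc1, which is a lower bound. Luminal markers had 5 of 14 above 0, with a median of -0.11 and sums of 105853 units in null cells and 110782 units in heterozygous cells. Myoepithelial markers had 3 of 11 above 0, with a median of -0.11 and sums of 24872 units in null cells and 27039 units in heterozygous cells. Adipocyte markers had 1 of 7 above 0, with a median of -0.28, and Cidec was below both floors. Their signals summed to 7495 units in null cells and 9702 units in heterozygous cells. Lep and Adipoq passed the filter through heterozygous cells alone, so their signs add no support. The adipocyte median is the floored ratio of Lep, which is a bound. Rescaled to the hybridization controls, it was -0.05, with 3 of 7 above 0 and 1 at least 2-fold lower, against 2 as deposited. Relative to the hybridization controls the luminal and myoepithelial medians were 0.12 each and thus changed sign, the luminal one also with quantile normalization (0.01), while the fibroblast and endothelial medians were 0.94 and 0.62.

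In such bulk samples, fewer cells of a type and less RNA per cell cannot be told apart. The part of these marker differences in the ratios of Sfrp2, Dkk3, Wif1, Fzd2, Ror1 and the remaining members was not tested. Fibroblast markers at least 2-fold higher were Col1a2, a collagen chain, Pdgfra, a growth factor receptor, and Loxl1, a matrix oxidase, with ratios of 1.60, 1.61 and 1.18. The second measured probe set of Col1a2 had 1.80, but that of Pdgfra read 53.8 units in null cells and 52.2 units in heterozygous cells (0.04). Vwf, a clotting factor of endothelium, had 1.32. Krt17, a basal keratin, was the 1 myoepithelial marker 2-fold apart, with -1.55. Adipocyte markers at least 2-fold lower were Cidea, a lipid droplet protein that the lactating gland makes too, at 665 units in null cells and 2188 units in heterozygous cells (-1.72), and Adipoq, adiponectin, at 29.2 units in null cells, below the floor, and 66.6 units in heterozygous cells (at least 2.05-fold lower). No luminal or macrophage marker was 2-fold apart. The brightest luminal ones, the milk proteins Csn3 and Wap, had -0.11 and -0.23, and the brightest macrophage ones, Lyz2 and Csf1r, had 0.43 and 0.50.

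**Figure D4:**
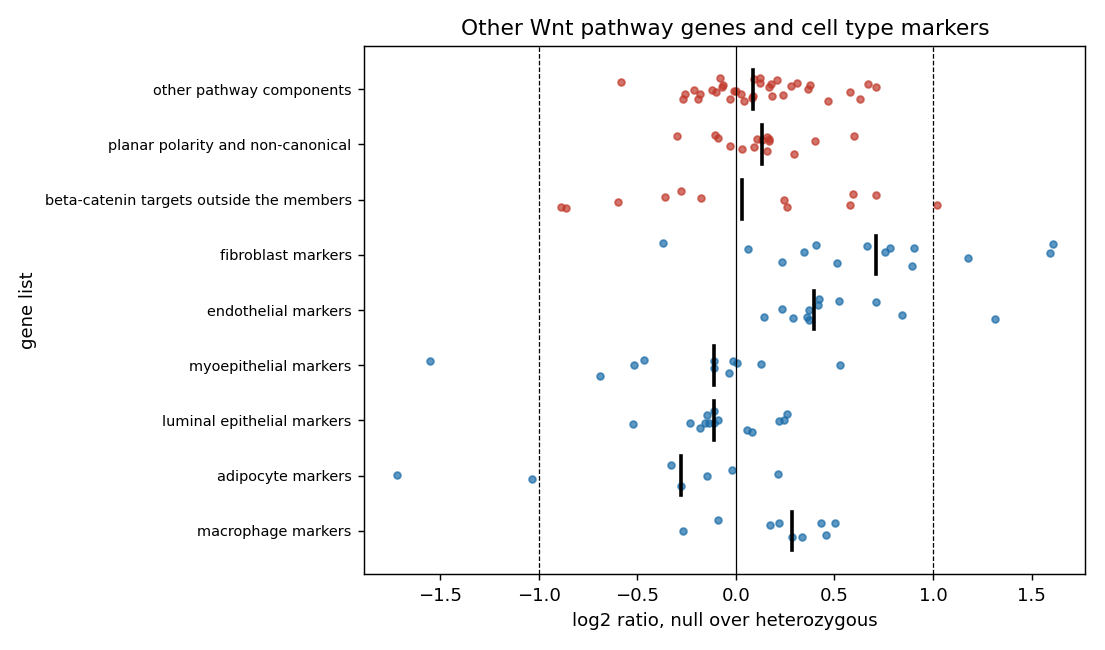
Log2 ratio of null over heterozygous for measured genes of the other pathway lists (red) and of the cell type markers (blue), 1 point per gene by its brightest probe set. Black bars are medians and dashed lines mark 2-fold. The fibroblast and endothelial medians of 0.71 and 0.39 lie to the right of those of the pathway lists.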

How the data were processed

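RNA from mammary epithelial cells was measured on 2 Affymetrix 3′ arrays. The authors deposited a linear signal intensity for every probe set. The submitters' processing notes name MAS5, and version 1 of Affymetrix Expression Console. The 2% trimmed mean was 150.0 on both arrays, so total signal is assumed equal, and detection calls were not used here. No genome build is named in the sources used here. Of 45101 probe sets, 64 are controls, 34958 had 1 gene symbol in the platform's annotation, 932 had several and 9160 non-control ones had none. Current symbols were looked up by Entrez ID in RefSeq's mouse table, with 34754 found.

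Arrays were floored at their medians, log2 ratios taken and robust SDs (from the median absolute deviation) computed in 20 bins of signal, with Python 3.11.15, pandas 2.3.3 and numpy 2.4.6. These steps were tested on simulated data. The planted differences lay only in probe sets above both floors and brighter than most members, so the test does not cover dim signals. With 1 array per genotype no test was run, and the number of arrays limits the precision. Each gene was represented by its brightest probe set on average.

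The members, lists and rules were chosen with earlier results of these data known. Named were the 12 largest ratios above both floors, members 2-fold apart, the 2 brightest genes per role, and genes with probe sets at least 1 log2 unit apart. Of the other lists, those 2-fold apart or else the 2 brightest were named, and further ones are marked as chosen later. The remaining members were accounted for after their values were seen, and the GC box was added then. Protein sequences were not used here. The alternatives were other floors, a filter, 2 other scalings, a pseudocount of 16, another probe set and a 1.5-fold rule.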

Additional observations from a re-analysis of the deposited data

How the results depend on the processing

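No paired analysis was possible because each genotype has 1 array. The number higher and lower depended on the floor: without a floor 18 of 110 members were at least 2-fold higher and 16 lower, beside 11.1% and 13.6% of all probe sets. A 25th-percentile floor gave 11 and 7 of 95, beside 4.33% and 6.49% of all, and a 75th-percentile floor 1 and 0 of 20, beside 0.352% and 0.545% of all, the 1 being Tcf7l1. The call of Wnt10a, the member 2-fold lower, was lost (0 lower) with probe sets above both floors alone, under the 75th-percentile floor and on the hybridization-control scale, where its ratio was -0.87. At 1.5-fold, 8 members were higher and 5 lower, beside 5.61% and 6.41% of all. With log2(signal + 16) 4 were higher and 1 lower of all 110, beside 1.55% and 2.03% of all, although Lgr6 and Dkk3 then had 0.95 and 0.82.

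On the hybridization-control scale the median ratios over probe sets were 0.34 for all members, 0.38 for ligands, 0.16 for receptors, 0.57 for secreted inhibitors, 0.34 for the R-spondin axis, 0.12 for Axin and 0.57 for TCF and LEF, so receptors and Axin changed sign, at -0.07 and -0.11 as deposited. Axin had 0.04 with the 75th-percentile floor. The receptor median was also above 0, at 0.005 with probe sets above both floors alone and 0.003 with quantile normalization, and its deposited value is that of an Fzd3 probe set whose sign comes from the unequal floors, so no direction is given for receptors. The ligands had -0.16 under the 25th-percentile floor and without one, -0.068 with log2(signal + 16) and 0.39 under the 75th-percentile floor (2 probe sets), against 0.15 as deposited, so no direction is given for them. TCF and LEF had 0.10 under the 75th-percentile floor and 0.73 with 1 probe set per gene (2 genes). The medians printed here are those that moved by more than 0.21, the robust SD of single probe sets, which is not an error of a median, and those that changed sign. Of 149 ratios of single genes under the alternatives, 137 moved by less than the robust SD at their signal and 12 by more. Many of the 137 could not move. A gene above both floors keeps its value without a floor, with the lower floor and with the filter. Of those 12, 9 came from taking the next brightest probe set. Under that alternative only Fzd7, Ror1 and Tcf7l2 moved by less than the robust SD. The next probe sets of Fzd7 and Ror1 were at the floor on 1 array, so their ratios of -0.15 and 0.45 are bounds. Without a floor these ratios were -1.54 and 1.01, so the small moves of Fzd7 and Ror1 do not show stability. The causes were not tested.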

Other observations

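Genes of planar cell polarity and of Wnt signalling without beta-catenin held none past 2-fold. Of 18 listed, 15 were measured, all above both floors. They had 11 ratios above 0 and a median of 0.13, beside 54.0% above 0 and 0.03 over all measured genes. Ptk7, a pseudokinase co-receptor of that branch, read 131 units in null cells and 86.2 units in heterozygous cells (0.60), and Vangl1, a core polarity protein, read 214 units in null cells and 162 units in heterozygous cells (0.40). These 2 were picked with their values in view. The 2 brightest of the list, Rac1 and Rhoa, small GTPases with many other roles, had ratios of -0.09 and -0.03. 2 further inhibitors outside the members were also chosen after their values were seen: Sostdc1, which binds Lrp co-receptors, read 109 units in null cells and 68.4 units in heterozygous cells (0.67), and Apcdd1, a membrane inhibitor, read 70.4 units in null cells and 47.1 units in heterozygous cells (0.58).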
